A study of Capra hircus with 3 samples.

Results

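Portal fibroblasts and smooth muscle cells of the goat liver were taken from single-cell libraries by a rule on 14 marker genes. A barcode was kept when DCN, ACTA2, MYH11 and LUM together had at least 3 unique molecular identifiers (UMIs, each standing for 1 captured mRNA molecule). This sum also had to exceed CPS1 plus ABCB11, which mark hepatocytes, and to be no smaller than PDGFRB plus LRAT plus HGF plus RELN, which mark hepatic stellate cells. STAB2, MSR1, PKHD1 and THEMIS, which mark sinusoidal endothelium, macrophages, bile duct cells and T cells, had to be at 0. The rule kept 106 of 25591 barcodes, and all 14 of its genes were present in the deposited matrices.

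The livers came from 15 female goats aged 3 to 4 years in 3 groups of 5. The NASH group had non-alcoholic steatohepatitis on the HRDS diet, the NASH-T group (steatohepatitis tolerance) was on the same HRDS diet, and the healthy Con group was on the LRDS diet. The labels do not spell out either diet name. The 5 livers of a group were pooled, digested with 0.25% trypsin at 37 °C and loaded as 1 library of 3′ single-cell RNA sequencing, so a group has 1 library, no replicate and no test, and variation between goats was not measured. The rule kept 26 of 8731 barcodes in NASH, 40 of 9375 in NASH-T and 40 of 7485 in Con.

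Portal fibroblasts lie in the connective tissue around the portal vein, hepatic artery and bile duct, where they lay down collagens, elastic fibres and small proteoglycans. In rodent bile duct injury they are a known source of matrix-forming myofibroblasts. Vascular smooth muscle cells wrap the portal vein and hepatic artery branches and set their tone through actin and myosin filaments, calcium channels and cyclic GMP. Both cell types are mesenchymal, as are the hepatic stellate cells of the sinusoid wall, and the 3 share many genes.

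Levels are in CPM, counts per 1000000: a gene's UMIs over all UMIs of the cells described in 1 library, scaled to that total. Intervals are 95% intervals and cover counting error only. The selected cells held 40667 UMIs in NASH, 79359 in NASH-T and 80718 in Con, and the median cell had 1425.5, 1668.5 and 1801. Over pairs of libraries 64 barcodes recurred, and 1 selected NASH cell was among them. Scrublet called 1 selected cell a doublet in NASH, 0 in NASH-T and 1 in Con.

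The genes of the rule describe the choice and support nothing. ACTA2, smooth muscle actin, was at 2041 CPM in NASH, 2041 in NASH-T and 3506 in Con. MYH11, smooth muscle myosin heavy chain, was at 1795 CPM in NASH, 1928 in NASH-T and 2961 in Con. DCN, the proteoglycan decorin, was at 1303 CPM in NASH, 1588 in NASH-T and 805 in Con. LUM, the proteoglycan lumican, was the scarcest of the 4, with 7 UMIs in NASH, 17 in NASH-T and 9 in Con. Cells with exactly 3 UMIs of the 4 genes numbered 2 in NASH, 7 in NASH-T and 5 in Con, and 5, 6 and 7 more barcodes met every other condition with 2 UMIs. Of the barcodes with at least 3 UMIs of the 4 genes (280 in NASH, 295 in NASH-T and 196 in Con), most were left out because the stellate sum was larger (248, 243 and 149), so the rule kept the minority of ACTA2, MYH11 or DCN bearing barcodes. In T cells, which should lack it, DCN was at 6.43 CPM in NASH, 6.51 in NASH-T and 5.23 in Con. RELN was at 84.4, 137 and 84.9 CPM there and MYH11 at 47.2, 27.2 and 33.7 CPM. Whether these UMIs came from free RNA was not tested.

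The label was checked against markers that the rule did not use. Smooth muscle markers were mixed. SYNPO2, an actin-binding protein of muscle, was at 2656 CPM in NASH, 2382 in NASH-T and 2924 in Con, and MYLK, the kinase that switches on smooth muscle myosin, was at 369, 315 and 297 CPM. CNN1, calponin, had 7 UMIs in NASH, 6 in NASH-T and 8 in Con. TAGLN, transgelin, had 0, 3 and 0 UMIs, and MYL9, a myosin light chain, had 1, 1 and 0, so these abundant markers of smooth muscle were at or near 0. SYNPO2 did not set the cells apart from the 928 barcodes called stellate-rule cells here, in which the 4 stellate genes summed to at least 3 UMIs and outweighed the other sums: it stood at 1887 CPM there in NASH, 2359 in NASH-T and 2465 in Con.

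Fibroblast markers were also uneven. COL14A1, a collagen of fibril surfaces, was at 664 CPM in NASH, 1689 in NASH-T and 929 in Con, against 284, 233 and 323 CPM in stellate-rule cells. In NASH-T, 88 of its UMIs were in 5 cells with endothelial genes that are described below. Without such cells COL14A1 was at 755 CPM in NASH-T and 836 in Con. COL1A1 had 4 UMIs in NASH, 6 in NASH-T and 6 in Con, and FBLN1 had 4, 9 and 6, while COL1A2 had 11, 62 and 86. THY1 and GLI1, which mark portal fibroblasts in mouse liver, had 1 UMI in NASH-T between them and 0 in NASH and Con. COL3A1 was not analysed here.

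Hepatocyte and endothelial genes were present among markers of other cell types, and so was BICC1 of the bile duct list. UPK3B, WT1 and LRRN4 of mesothelium, CD79A and MS4A1 of B cells, EPCAM and KRT7 of bile ducts, and SOX10 and S100B of glia had 0 UMIs in all 3 libraries. Their lists were not all at 0. The bile duct list without genes of the rule summed to 89 UMIs in NASH, 164 in NASH-T and 208 in Con. BICC1 of that list was at 1893, 1789 and 2094 CPM. The mesothelial list summed to 3, 2 and 14 UMIs and the B and plasma cell list to 1, 5 and 0. RGS5, a pericyte gene, had 0 UMIs in NASH, 2 in NASH-T and 2 in Con, but other pericyte genes were present. The pericyte list without genes of the rule summed to 119 UMIs in NASH, 144 in NASH-T and 129 in Con. That is 2926, 1815 and 1598 CPM, and ABCC9 and POSTN of this list are described below. ALB, the hepatocyte product albumin, stood at 1992 CPM in NASH, 2054 in NASH-T and 1524 in Con, close to its level in T cells (1814, 2266 and 1699 CPM). Other hepatocyte genes were uneven. PCK1, an enzyme that makes glucose, was at 344 CPM in NASH, 75.6 in NASH-T and 619 in Con, against 154, 107 and 140 CPM in T cells. FGB, a fibrinogen chain, was at 320, 227 and 632 CPM, against 360, 353 and 328 CPM in T cells. Both stood above T cells in Con. CPS1 had 5 UMIs in NASH, 1 in NASH-T and 31 in Con, and ABCB11 had 0, 0 and 12. The rule required only that their sum stay below that of DCN, ACTA2, MYH11 and LUM. The endothelial list of 14 genes in the matrices summed to 13 UMIs in NASH, 193 in NASH-T and 28 in Con.

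Most endothelial UMIs of NASH-T and Con sat in 6 cells, with 172 in NASH-T and 16 in Con. The other selected cells had 13 in NASH, 21 in NASH-T and 12 in Con. In NASH-T, 5 selected cells had between 18 and 63 UMIs of the endothelial list, and 1 Con cell had 16, whereas the highest count in any other selected cell was 8. These 6 cells entered through DCN alone (28 UMIs, in 6 of 6), with 0 UMIs of ACTA2, MYH11, LUM and EPHA3. PTPRB, the endothelial tyrosine phosphatase, stood at 3020 CPM in them, EMCN, endomucin, at 2080 CPM and VWF, von Willebrand factor, at 1139 CPM, and PECAM1 had UMIs in 6 of 6. CDH5, a further endothelial marker, had 1 UMI in 1 of the 6 cells. Fibroblast genes were split in them. COL14A1 was at 4778 CPM in the NASH-T cells and 5053 CPM in the Con cell, and FBN1, a fibrillin, had UMIs in 6 of 6. COL1A2, MGP, PDGFRA and LAMA2 had 0 UMIs. PTPRB, EMCN, VWF and PECAM1 go against the label, so these cells are called endothelial-gene cells. They supplied 18416 of the 79359 UMIs of NASH-T. Values without them are given where they were found to decide a result.

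The remaining 100 cells were parted by the rule's own genes and by the genes that led over stellate-rule cells, with limits that were set after the values had been seen. Smooth-muscle-gene cells had more ACTA2 plus MYH11 than DCN plus LUM and at least 3 UMIs of KCNAB1, RYR2, PRUNE2 and DTNA. They numbered 5 of 26 in NASH, 10 of 40 in NASH-T and 15 of 40 in Con, and 2 NASH, 2 NASH-T and 3 Con muscle-type cells missed the limit by 1 UMI. RELN-bearing muscle-type cells, with at least 1 UMI of the stellate gene RELN, numbered 6 in NASH, 6 in NASH-T and 4 in Con. Other muscle-type cells numbered 5, 8 and 9, fibroblast-type cells (more DCN plus LUM) 10, 11 and 10, and 1 Con cell was tied. These counts describe the rule, since genes that differ between the libraries define the kinds.

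**Figure D1:**
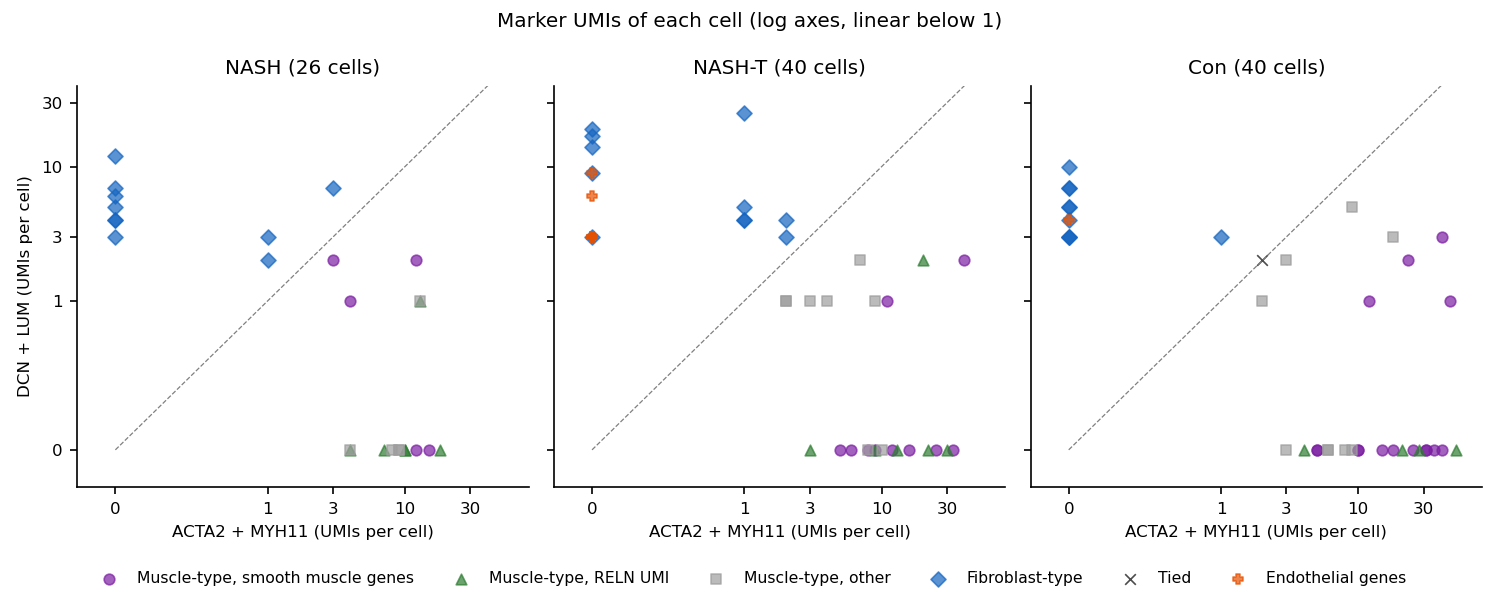
Each point is 1 selected cell, with its UMIs of ACTA2 plus MYH11 on the horizontal axis and of DCN plus LUM on the vertical axis (log axes, linear below 1), in NASH (26 cells), NASH-T (40) and Con (40). The dashed line marks equal sums, cells with equal values lie on top of each other, and the endothelial-gene cells sit at 0 on the horizontal axis.

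**Figure D2:**
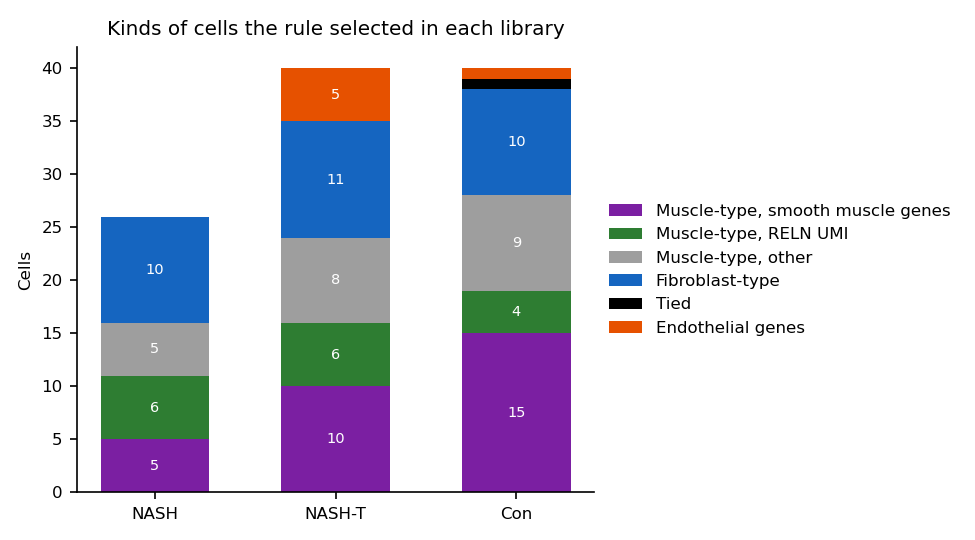
Stacked bars give the number of selected cells of each kind in NASH, NASH-T and Con, with counts above 1 written in the bars. Smooth-muscle-gene cells make up 5, 10 and 15 cells and fibroblast-type cells 10, 11 and 10, and the 5 endothelial-gene cells of NASH-T have a single counterpart in Con and none in NASH.

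The kinds differed in genes that neither the rule nor the kinds used, here pooled over the libraries. EPHA3, an ephrin receptor tyrosine kinase, had UMIs in 31 of 31 fibroblast-type cells at 13394 CPM, in 24 of 30 smooth-muscle-gene cells at 3110 CPM and in 4 of 16 RELN-bearing cells at 1639 CPM. C7, a terminal complement component, had UMIs in 31 of 31 fibroblast-type cells at 6010 CPM, in 5 of 30 smooth-muscle-gene cells at 971 CPM and in 2 of 16 RELN-bearing cells at 68.3 CPM. POSTN, periostin, a matricellular protein, was at 1912 CPM in RELN-bearing cells, 266 CPM in fibroblast-type cells and 35.9 CPM in smooth-muscle-gene cells. HHIP, which binds hedgehog ligands, was at 2732 CPM in RELN-bearing cells, 14.8 CPM in fibroblast-type cells and 108 CPM in smooth-muscle-gene cells. POSTN and HHIP were also abundant in stellate-rule cells, at 2964 and 4996 CPM in NASH, 3522 and 7042 CPM in NASH-T and 3127 and 6656 CPM in Con. The share of these RELN-bearing cells that are stellate cells with a high MYH11 or ACTA2 count was not tested.

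MYOCD, the coactivator that drives the smooth muscle programme, had 30 UMIs in 14 of 30 smooth-muscle-gene cells, 2 UMIs in the 16 RELN-bearing cells and 0 in the 31 fibroblast-type cells. LAMA2, a laminin chain of basement membranes, was at 3057 CPM in fibroblast-type cells, 376 CPM in RELN-bearing cells and 18.0 CPM in smooth-muscle-gene cells. PDGFRA, a growth factor receptor of fibroblasts, was at 930, 171 and 18.0 CPM in the same order. The 22 other muscle-type cells had values between those of the kinds above. In them EPHA3 was at 5591 CPM, C7 at 1640, LAMA2 at 1454, HHIP at 671, POSTN at 224 and PDGFRA at 186 CPM, and MYOCD had 5 UMIs.

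The genes that led the selected cells over all other barcodes were ranked by the smallest of their ratios in NASH, NASH-T and Con, so they were chosen by these values and a high ratio in each library is no result. Every gene in these cells counts as used by the rule, so the comparison is a description. EPHA3 was the most abundant of them, at 7525 CPM in NASH (6705 to 8417), 6477 in NASH-T (5929 to 7062) and 5909 in Con (5391 to 6464), against 14.0, 6.08 and 17.0 CPM in other barcodes outside the stellate-rule cells. PDZRN4, a ubiquitin ligase, was at 639 CPM in NASH, 416 in NASH-T and 607 in Con, against 1.18, 0.904 and 0.883 CPM. C1QTNF7, a secreted C1q-related protein, was at 418, 265 and 483 CPM, against 0.856, 0.556 and 1.12 CPM. NTRK3, a neurotrophin receptor, was at 1057, 391 and 842 CPM, against 0.823, 1.22 and 1.32 CPM. DPT, dermatopontin, which binds decorin, was at 590, 365 and 223 CPM, against 0.889, 0.278 and 0.682 CPM. RBFOX1, a splicing factor, MAP1B, a microtubule protein, IRAG1, a target of cyclic GMP dependent kinase in smooth muscle, and COL6A3 followed. Each was at least 203 times its level in other barcodes outside the stellate-rule cells in every library. Over stellate-rule cells the ratios were smaller, at 6.87 in NASH, 3.91 in NASH-T and 4.10 in Con for RBFOX1. For MAP1B they were 9.80, 6.95 and 13.8, and IRAG1 and COL6A3 were not among the leading genes there.

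Over stellate-rule cells the order changed. KCNAB1, a potassium channel subunit, RYR2, the calcium release channel, PRUNE2, and DTNA, a dystrobrevin, came first, with ratios of at least 16.5 in every library. In NASH these ratios rest on 2 UMIs of KCNAB1, 4 of PRUNE2 and 7 of DTNA in the selected cells. KCNAB1 and PRUNE2 had 0 UMIs in Con stellate-rule cells, set to a floor of 3 counts. RYR2, for example, stood at 787 CPM in NASH, 554 in NASH-T and 1487 in Con, against 32.5, 9.70 and 33.1 CPM in stellate-rule cells. MGP, matrix Gla protein, which holds back calcification of vessel walls, stood at 590, 328 and 149 CPM, against 29.9, 23.6 and 5.84 CPM. EPHA3 kept ratios of 8.85 in NASH, 9.96 in NASH-T and 8.34 in Con over stellate-rule cells. SYNPO2 and MYH11 led over other barcodes but not over stellate-rule cells, where MYH11 reached 1480 CPM in NASH, 2277 in NASH-T and 1913 in Con.

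**Figure D3:**
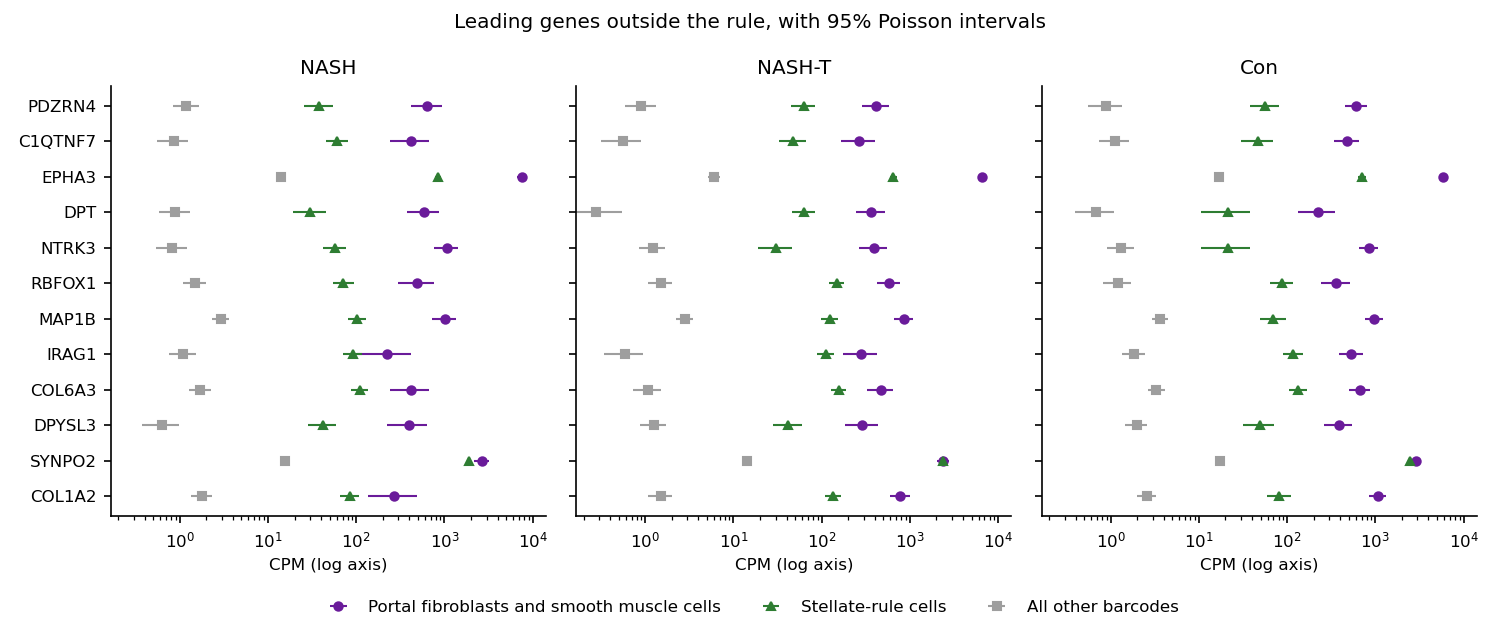
Points give the CPM (log axis) of 12 leading genes outside the rule in the selected cells, in stellate-rule cells and in all other barcodes, for NASH, NASH-T and Con, with 95% Poisson intervals. The selected cells lie to the right of the other barcodes for all 12 genes in each library, and EPHA3 is furthest right, at 7525, 6477 and 5909 CPM.

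Muscle-type cells (more ACTA2 plus MYH11) numbered 16 in NASH, 24 in NASH-T and 28 in Con, and fibroblast-type cells, here with the endothelial-gene cells, 10, 16 and 11. A gene was called when its CPM differed by at least 1.5-fold in the same direction in all 3 libraries, with at least 20 UMIs. Of 2122 genes measured, 193 (9.1%) were higher and 115 (5.42%) lower in muscle-type cells. The 3 libraries repeat the same contrast, but both sides of it share the library.

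Contractile genes were on the muscle side. Of 16 measured members of the contractile list, 11 were higher and 0 lower in muscle-type cells, with a median log2 ratio of 2.43 against -0.02 over all genes. TPM1, tropomyosin, was at 1430 CPM in NASH, 1705 in NASH-T and 1664 in Con muscle-type cells, against 227, 22.9 and 74.8 CPM in fibroblast-type cells. VCL, vinculin of adhesion plaques, was at 997, 1649 and 1115 CPM, against 171, 252 and 262 CPM. The arms did not overlap over the libraries for either gene. Both genes were ranked by their smallest ratio over the libraries, so this is no separate result. ACTG2, the enteric and vascular gamma actin, had 286 CPM in muscle-type cells and 0 in fibroblast-type cells over all libraries, and FLNA, filamin, had 304 and 34.1 CPM.

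The vascular tone list had 6 members higher and 0 lower of 19, at a median of 0.83. EDNRA, an endothelin receptor, stood at 412 CPM in muscle-type cells and 56.9 CPM in fibroblast-type cells over all libraries, EDNRB, the other endothelin receptor, at 438.5 and 91.0 CPM, and GUCY1A1, a subunit of the nitric oxide sensor guanylate cyclase, at 1235 and 307 CPM. KCNAB1 had 66 UMIs in muscle-type and 1 in fibroblast-type cells, and PRUNE2 and DTNA had 99 and 98 UMIs in muscle-type cells and 0 in fibroblast-type cells. Of 8 measured members of the myocardin list, only MYOCD was called, at 331 and 0 CPM. The pericyte list had 2 of 6 higher (POSTN and COL4A2). POSTN was on this side through the RELN-bearing cells, at 1912 CPM over all libraries. It was at 35.9 CPM in smooth-muscle-gene cells, against 266 CPM in fibroblast-type cells without the endothelial-gene cells.

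Other genes higher in muscle-type cells were PTPRD, HHIP, CDH2, SEMA5A, CRIM1 and ARHGAP42. RELN-bearing cells held 80 of the 104 HHIP UMIs of muscle-type cells. CRIM1, which binds growth factors at the membrane, was at 2513 CPM in NASH, 2264 in NASH-T and 2231 in Con muscle-type cells, against 569, 482 and 224 CPM in fibroblast-type cells. VEGFA, the endothelial growth factor, was at 188 and 11.4 CPM and FGF2, a fibroblast mitogen, at 770 and 193 CPM over all libraries. The hepatocyte list was also higher in muscle-type cells, with 4 called of 11 measured (TTR, FGA, FGB and SERPINA1) and a median of 1.24. Its part in the other differences was not tested.

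Of 10 measured members of the list of chemokines, cytokines and complement, 4 were higher in fibroblast-type cells, 0 were higher in muscle-type cells and 6 were not called, with a median log2 ratio of muscle-type to fibroblast-type cells of -1.48. C7 was at 390 CPM in NASH, 1090 in NASH-T and 983 in Con muscle-type cells, against 2843, 4359 and 6396 CPM in fibroblast-type cells. CXCL12, a chemokine, was at 286 CPM in muscle-type and 921 CPM in fibroblast-type cells over all libraries, IL33, an alarmin cytokine, at 80.5 and 512 CPM, and PTGDS, a prostaglandin D synthase, at 125 and 591 CPM. A call required the same direction in every library, so the fibroblast arm was higher in each of them for these 4 by definition.

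Of 11 measured portal fibroblast genes, 5 were lower in muscle-type cells and 0 higher, at a median of -1.63. They were MGP, PDGFRA, C7, LAMA2 and FBN1, the fibrillin of elastic fibres. MGP was at 130 CPM in NASH, 55.9 in NASH-T and 0 in Con muscle-type cells, against 1194, 551 and 449 CPM in fibroblast-type cells. PDGFRA was at 43.3, 140 and 94.5 CPM, against 853, 528 and 935 CPM. Both are called genes, so the arms stood apart in all 3 libraries by definition.

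Collagens fell on both sides, with 3 of 11 higher in muscle-type cells (COL4A2 of basement membranes, COL8A1 and COL12A1) and 1 lower (COL1A2, of type I collagen, at 286 and 1445 CPM over all libraries). Small proteoglycans and glycoproteins had 4 higher (FN1, TNC, POSTN and HMCN1) and 3 lower (LAMA2, SPON1 and THBS2) of 20. POSTN was again high through the RELN-bearing cells. NOVA1, PLXDC2, PRR16, IL1R1, ENG, DNM3 and AOX1 were the other leading genes of fibroblast-type cells. NOVA1, a neuronal splicing factor, was at 43.3 CPM in NASH, 55.9 in NASH-T and 132 in Con muscle-type cells, against 1421, 413 and 1160 CPM. Of the endothelial list VWF was called on the fibroblast side, where the endothelial-gene cells were counted. Without the endothelial-gene cells, 178 genes were higher and 126 lower.

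**Figure D4:**
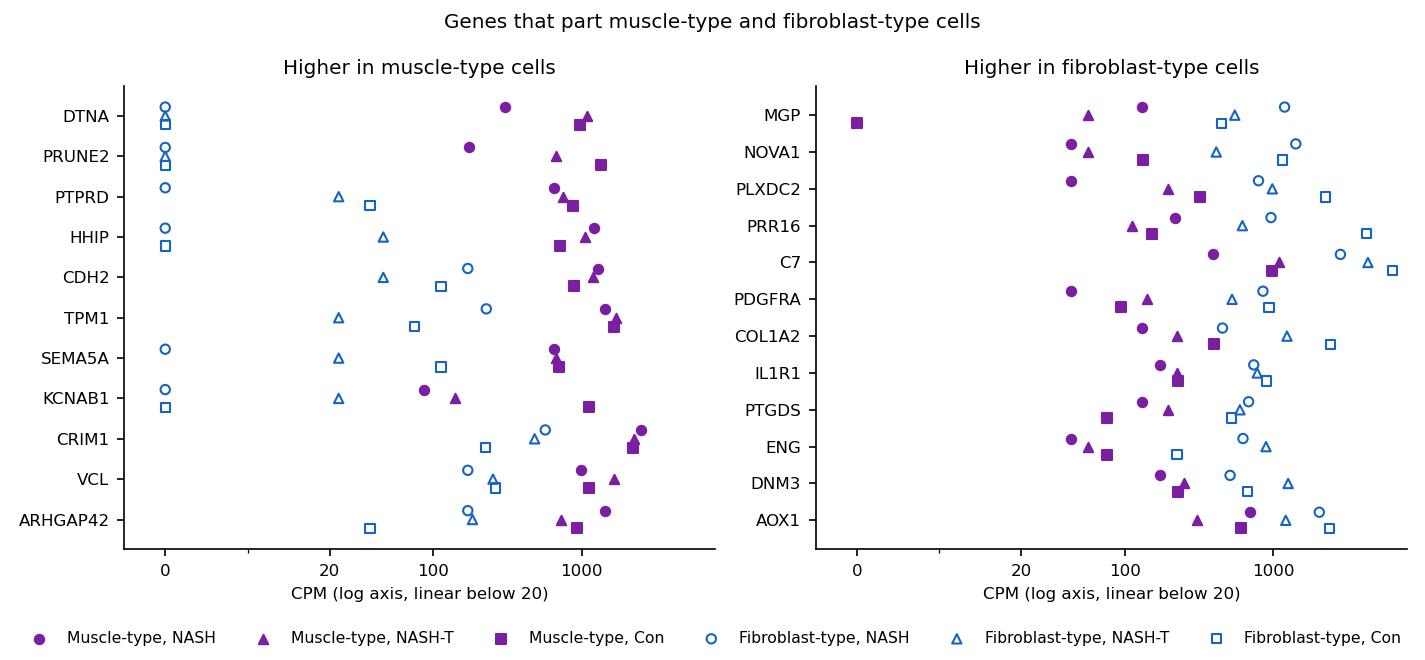
Points give the CPM (log axis, linear below 20) of leading genes of each arm in muscle-type cells (filled) and fibroblast-type cells (open), with a symbol for each of NASH, NASH-T and Con. The left panel holds genes higher in muscle-type cells and the right panel genes higher in fibroblast-type cells. Filled and open points of a library stand apart by at least 1.5-fold for every gene, as the call required.

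The selected cells were 0.298% of NASH barcodes (exact binomial interval 0.195 to 0.436), 0.427% of NASH-T barcodes (0.305 to 0.581) and 0.534% of Con barcodes (0.382 to 0.727). NASH had 0.557 times the share of Con (0.327 to 0.936). NASH-T had 0.798 times the share of Con (0.502 to 1.27) and 1.43 times that of NASH (0.853 to 2.45), and both intervals hold 1. After all barcodes had been thinned to 1000 UMIs the NASH to Con ratio was 0.548 (0.280 to 1.04). Among barcodes with at most 1 hepatocyte UMI of CPS1 and ABCB11 it was 0.694 (0.400 to 1.18), so the interval held 1 under either change. Fewer such cells in the liver, fewer freed by trypsin and fewer mRNA molecules per cell cannot be told apart.

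The arms are given apart. Muscle-type cells were 0.183% of NASH barcodes and 0.374% of Con barcodes, a ratio of 0.490 (0.248 to 0.937), and fibroblast-type cells were 0.115% and 0.147%, a ratio of 0.779 (0.297 to 2.02). The difference between these ratios was not tested. Stellate-rule cells went the other way, with 4.28% in NASH, 3.61% in NASH-T and 2.89% in Con. The selected cells numbered 6.95 per 100 stellate-rule cells in NASH, 11.8 in NASH-T and 18.5 in Con, and since the stellate sum decides between the 2 rules, the shift in that sum and the share of selected cells are not independent.

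Between libraries a call needed a 1.5-fold or larger ratio, up or down, and an interval without 1, among genes with a symbol and at least 20 UMIs over the selected cells of both libraries. The calls describe these pools, not the conditions. NASH and NASH-T were each set against the same Con library, so the comparisons share cells and their values are given side by side. The median log2 ratio over all genes was -0.01 for NASH to Con, -0.06 for NASH-T to Con and -0.03 for NASH-T to NASH.

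In NASH, 80 of 1350 genes were higher than in Con (5.93%) and 105 lower (7.78%). KCNAB1, PRUNE2, FILIP1, RYR2, TGFB3, FGF7 and PDGFD were among the lower genes, while MYH10, MGP, POSTN, OGN and CXCL12 were higher. KCNAB1 (ENSCHIG00000023684) was sparse outside Con, with 2 UMIs in NASH cells, 6 in NASH-T cells and 59 in Con cells, or 49.2 CPM (5.96 to 178), 75.6 CPM (27.7 to 165) and 731 CPM (556 to 943). The NASH to Con ratio was 0.0673 (0.00796 to 0.254), and in muscle-type cells alone 0.0777 (0.00920 to 0.293). Con stood above NASH and NASH-T with no overlap of the intervals.

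KCNAB1 was seen in 2 of 26 NASH cells, 4 of 40 NASH-T cells and 13 of 40 Con cells. After each cell had been thinned to 500 UMIs the shares were 7.69%, 7.5% and 22.5%, and the unthinned shares were 7.69%, 10% and 32.5%. In T cells thinned in the same way it was 0.188%, 0.318% and 0.255%, and the median depth was 1105, 1296 and 1241 UMIs in T cells against 1425.5, 1668.5 and 1801 in the selected cells. KCNAB1 is also a gene that defines the smooth-muscle-gene cells, whose number was 5, 10 and 15.

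PRUNE2 (ENSCHIG00000025880) followed KCNAB1, with 98.4 CPM in NASH, 302 in NASH-T and 880 in Con, and a NASH to Con ratio of 0.112 (0.0297 to 0.299). FILIP1, a filamin-interacting protein, had 148 CPM in NASH, 227 in NASH-T and 1251 in Con, with a NASH to Con ratio of 0.118 (0.0423 to 0.266). SVIL, supervillin, an actin and myosin binding protein of the membrane, had 2, 10 and 29 UMIs, and AKAP6, an anchor for protein kinase A in muscle, had 1, 9 and 30. Con was highest of the 3 libraries for all 4 genes.

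Of the contractile list, 2 of 14 measured genes were lower in NASH than in Con and 0 higher, at a median of -0.45. ACTG2 was 1 of them, with 1 UMI in NASH, 8 in NASH-T and 23 in Con, a NASH to Con ratio of 0.0863 (0.00209 to 0.531). MYOCD of the myocardin list had 4 UMIs in NASH, 7 in NASH-T and 26 in Con, a NASH to Con ratio of 0.305 (0.0774 to 0.880). The vascular tone list had 5 of 18 lower (median -0.09). They included RYR2 at 787 CPM in NASH, 554 in NASH-T and 1487 in Con, KCNMA1, the large calcium-activated potassium channel, with 7, 6 and 35 UMIs, and CACNB2, a calcium channel subunit, with 10, 75 and 53 UMIs. RYR2 is also among the genes that define smooth-muscle-gene cells.

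The remaining called member of the vascular tone list was higher. ABCC9, a subunit of the ATP-sensitive potassium channel of mural cells, stood at 1131 CPM in NASH, 403 in NASH-T and 557 in Con, a NASH to Con ratio of 2.03 (1.32 to 3.13). It is 1 of the 2 pericyte list members higher in NASH, of 4 measured. The other was POSTN, at 885 CPM in NASH, 315 in NASH-T and 260 in Con, a ratio of 3.40 (1.93 to 6.13). Both are abundant in stellate-rule cells, where POSTN had a NASH to Con ratio of 0.948 (0.889 to 1.01) and ABCC9 one of 0.851. RELN-bearing cells, in which POSTN is high, were 6 of 26 in NASH and 4 of 40 in Con, and without every cell with a RELN UMI and the endothelial-gene cells the POSTN ratio was 8.97 (2.42 to 49.5).

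Matrix genes moved both ways in NASH. MGP (ENSCHIG00000017819) was at 590 CPM in NASH, 328 in NASH-T and 149 in Con, a NASH to Con ratio of 3.97 (1.91 to 8.71), of which 1 NASH cell supplied 50% of the UMIs, and without the top cell of each library the ratio was 2.07 (0.851 to 5.04). OGN, osteoglycin, a small leucine-rich proteoglycan, was at 418, 315 and 74.3 CPM, a ratio of 5.62 (2.12 to 17.4), and its UMIs were spread over 8 NASH, 10 NASH-T and 6 Con cells. DPT had a ratio of 2.65 (1.38 to 5.18) and LAMA2 one of 1.75 (1.26 to 2.42), which were 1.90 (0.909 to 3.96) and 1.35 (0.940 to 1.93) without the top cells. MGP, OGN, DPT and LAMA2 are 4 of the 10 measured portal fibroblast genes (median 0.02), and the only lower one was C7, at 1451 CPM in NASH, 2886 in NASH-T and 2825 in Con.

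Of 18 measured small proteoglycans and glycoproteins, 5 were higher and 2 lower, at a median of 0.50. NID1, nidogen of basement membranes, had 14 UMIs in NASH, 10 in NASH-T and 6 in Con, and HMCN1, hemicentin, had 18, 13 and 10. SPON1, a secreted adhesion protein, was lower, with 3, 28 and 26 UMIs. Collagens had 0 higher and 2 lower of 10. COL1A2 had 11 UMIs in NASH, 62 in NASH-T and 86 in Con, a NASH to Con ratio of 0.254 (0.122 to 0.477). A single cell held 77.4% of its NASH-T UMIs and 58.1% of its Con UMIs, and without the top cell of each library the NASH to Con ratio was 0.583 (0.268 to 1.17). COL12A1, a fibril-associated collagen, had 12, 17 and 119 UMIs, of which 76.5% in Con came from 1 cell.

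LTBP1, which stores latent TGF-beta in the matrix, was lower over many cells, with 492 CPM in 11 NASH cells, 391 CPM in 14 NASH-T cells and 1660 CPM in 30 Con cells. Its NASH to Con ratio was 0.296 (0.175 to 0.476). It was 0.159 (0.0623 to 0.339) in muscle-type cells and 0.599 (0.289 to 1.17) in fibroblast-type cells, and 0.989 (0.866 to 1.13) in stellate-rule cells. TGFB3, a TGF-beta ligand, had 1 UMI in NASH, 4 in NASH-T and 33 in Con, with a NASH to Con ratio of 0.0601 (0.00148 to 0.359). LTBP1 and TGFB3 were the 2 lower genes of 9 in the TGF-beta list, with 0 higher.

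Of the PDGF, FGF and IGF list, 3 of 8 were lower and 0 higher, at a median of -0.82. FGF7, which acts on epithelium, was at 172 CPM in NASH, 214 in NASH-T and 780 in Con, a ratio of 0.221 (0.0852 to 0.482). PDGFD, a ligand for PDGFRB, was at 418, 466 and 1412 CPM, a ratio of 0.296 (0.167 to 0.495). FGF2 was at 320, 454 and 669 CPM, a ratio of 0.478 (0.239 to 0.887). DKK2, a secreted modulator of Wnt signals, had 0 UMIs in NASH, 2 in NASH-T and 30 in Con (from 4 cells). With the NASH count of 0 set to a floor of 3 counts, NASH was 5.04-fold lower. NOTCH2, a receptor for jagged ligands, had 3, 20 and 37 UMIs, and HDAC9, a repressor of muscle genes, had 5, 15 and 45.

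Immediate early and matricellular genes had 2 of 5 lower and 0 higher, at a median of -1.18. NR4A3, an orphan nuclear receptor, had 7 UMIs in NASH, 19 in NASH-T and 54 in Con, and CCN1 had 8, 13 and 37. Without the top cell of each library their NASH to Con ratios were 0.446 (0.165 to 1.04) and 0.568 (0.223 to 1.29). Of the turnover list 3 of 10 were higher (TIMP3, ADAMTSL1 and ADAMTS2) and 2 lower (ADAMTS5 and PLOD2). TIMP3, an inhibitor of matrix proteases, was at 1525 CPM in NASH, 1033 in NASH-T and 780 in Con, a ratio of 1.95 (1.35 to 2.82). It was 1.23 (0.794 to 1.87) without the top cell of each library.

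MYH10 (ENSCHIG00000018616), the non-muscle myosin heavy chain, had the largest ratio of the ranked genes higher in NASH. It was at 689 CPM in NASH (458 to 995), 428 in NASH-T (297 to 599) and 136 in Con (68.0 to 244), a NASH to Con ratio of 5.05 (2.44 to 11.2). The ratio was 6.88 (2.38 to 24.2) in muscle-type cells and 3.95 (1.32 to 14.2) in fibroblast-type cells, and 1.12 (0.805 to 1.58) in stellate-rule cells. MYH10 UMIs were found in 14 of 26 NASH, 15 of 40 NASH-T and 7 of 40 Con cells. With cells thinned to 500 UMIs the shares were 23.1%, 17.5% and 5%, against 0.282%, 0.509% and 0.340% of T cells.

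CXCL12 was at 910 CPM in NASH, 630 in NASH-T and 334 in Con, a NASH to Con ratio of 2.72 (1.61 to 4.65). It was the only chemokine or complement gene called higher in NASH of 7, with C7 lower. CHD9, a chromatin remodeller, was at 1402, 680 and 359 CPM and had UMIs in 23 of 26 NASH cells, 21 of 40 NASH-T cells and 15 of 40 Con cells, a ratio of 3.90 (2.45 to 6.33). In T cells CHD9 was also common, with 13.4%, 13.7% and 11.5% of cells after thinning, against 53.8%, 15% and 17.5% of the selected cells. TSPAN7, FANCC, GTDC1, CCSER1, ROBO2 and APOA2 were the other ranked genes, with ratios between 2.86 and 3.80.

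Hepatocyte transcripts moved with this comparison. APOA2, FABP1 and APOB were the higher ones. FABP1, the fatty acid binding protein of hepatocytes, had 18 UMIs in NASH, 5 in NASH-T and 7 in Con, and APOA2, an apolipoprotein, had 31, 38 and 20. FABP1 had a NASH to Con ratio of 5.10 (2.03 to 14.5) in the selected cells and 5.09 (3.29 to 8.24) in stellate-rule cells, and T cells held FABP1 at 308 CPM in NASH, 107 in NASH-T and 70.3 in Con. The hepatocyte list of 18 genes in the matrices summed to 5557 CPM in NASH, 4310 in NASH-T and 4571 in Con, with 3 of 8 measured genes higher and 1 lower in NASH. Its part in the other differences was not tested.

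In NASH-T, 163 of 1764 genes were higher than in Con (9.24%) and 196 lower (11.1%). Among the lower genes were KCNAB1, FILIP1, LTBP1 and PDGFD, and among the higher ones FTH1, OGN, MPZL1 and 3 endothelial genes. Without the endothelial-gene cells 111 genes were higher and 139 lower, of which 72 and 123 were called with them as well. KCNAB1 had a NASH-T to Con ratio of 0.103 (0.0365 to 0.239), FILIP1 one of 0.181 (0.103 to 0.301), LTBP1 one of 0.235 (0.154 to 0.350) and PDGFD one of 0.330 (0.221 to 0.482). With the endothelial-gene cells left out, the largest of these 4 ratios was 0.420, for PDGFD. Mitochondrial genes moved with this comparison, at 0.318% of the UMIs of the selected cells in NASH-T, 0.229% in NASH and 0.131% in Con, and at 0.301%, 0.131% and 0.160% over all barcodes. Their part in the other differences was not tested.

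Contractile genes had 3 of 14 lower and 0 higher (median -0.43). They included ACTG2, at a ratio of 0.354 (0.137 to 0.819), and CSRP1, a LIM protein of smooth muscle, with 8 UMIs in NASH-T and 21 in Con. Leaving out the endothelial-gene cells gave 0.451 (0.174 to 1.04) for ACTG2 and 0.493 (0.189 to 1.16) for CSRP1, so both intervals held 1, and 1 cell gave 43.5% of the ACTG2 UMIs in Con. Vascular tone genes had 5 of 18 lower and 0 higher, at a median of -0.37. KCNMA1 had 6 UMIs in NASH-T and 35 in Con, and RYR2 a ratio of 0.373 (0.258 to 0.531). TRPC6, a cation channel opened by diacylglycerol, was at 617 CPM in NASH-T, 1328 in NASH and 1474 in Con, a NASH-T to Con ratio of 0.419 (0.294 to 0.589). PDE5A, which breaks down cyclic GMP, was at 466 CPM in NASH-T, 566 in NASH and 904 in Con, a ratio of 0.516 (0.337 to 0.776). In muscle-type cells alone the TRPC6 ratio was 0.435 and the PDE5A ratio 0.665.

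TGFB3, COL12A1, ATP8B4, MKX, KLHL29, PCDH7, RUFY3 and TTLL5 were the other ranked genes lower in NASH-T, with ratios between 0.123 and 0.224. MKX, a homeobox factor of tendon fibroblasts, had 4 UMIs in NASH-T, 2 in NASH and 26 in Con. Of 11 turnover genes, 4 were lower and 1 higher (median -0.70). PLOD2, which hydroxylates collagen lysines, was at 214 CPM in NASH-T, 369 in NASH and 681 in Con, a ratio of 0.314 (0.171 to 0.550). A single cell held 45.5% of the Con UMIs, and without the top cells the ratio was 0.555 (0.287 to 1.04). LAMC1, a laminin chain, had a ratio of 0.381 (0.196 to 0.706), over 11 NASH-T and 24 Con cells.

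The PDGF, FGF and IGF list had 4 of 8 lower and 0 higher (median -0.66). In the Wnt list 2 of 6 were lower. DKK2 had 2 UMIs in NASH-T and 30 in Con, a ratio of 0.0678 (0.00785 to 0.267), and NKD1, an inhibitor of Wnt signals, had 3 and 22, a ratio of 0.139 (0.0266 to 0.462). The higher Wnt list member was TCF7L2, a nuclear Wnt effector, at 995 CPM in NASH-T, 762 in NASH and 657 in Con, a ratio of 1.52 (1.06 to 2.19), and 1.44 (0.978 to 2.13) without the endothelial-gene cells. NR4A3 and CCN1 were the 2 lower immediate early and matricellular genes of 7, at 0.358 (0.200 to 0.614) and 0.357 (0.174 to 0.688). In muscle-type cells alone NR4A3 was at 1.23 (0.578 to 2.59).

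The endothelial genes higher in NASH-T rested on the endothelial-gene cells. PTPRB had 60 UMIs in NASH-T, 3 in NASH and 2 in Con, EMCN had 36, 0 and 6, and VWF had 28, 1 and 1, so 3 of 3 measured endothelial genes were higher. CSGALNACT1, a chondroitin synthesis enzyme, had 34 UMIs in NASH-T, 1 in NASH and 6 in Con, and PDE7B, a cyclic AMP phosphodiesterase, had 102, 3 and 18. Without the endothelial-gene cells none of the 5 reached 10 UMIs over NASH-T and Con. CERS6, a ceramide synthase, was at 567 CPM in NASH-T, 24.6 in NASH and 61.9 in Con, a NASH-T to Con ratio of 9.15 (3.65 to 29.6). The endothelial-gene cells held 36 of its 45 UMIs in NASH-T and 4 of its 5 in Con. Without them CERS6 was at 148 CPM in NASH-T (67.5 to 280), 24.6 in NASH and 12.7 in Con, or 9 UMIs, 1 and 1, which is under the minimum of 20 UMIs for a call. CCSER1 was at 1424 CPM in NASH-T, 713 in NASH and 248 in Con, with 60.2% of the NASH-T UMIs in 1 cell, and its NASH-T to Con ratio of 5.75 (3.55 to 9.76) was 2.02 (1.04 to 4.06) without the endothelial-gene cells.

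Other genes were higher in NASH-T with or without those cells. FTH1 (ENSCHIG00000018949), the ferritin heavy chain that stores iron, was at 1248 CPM in NASH-T, 246 in NASH and 161 in Con. Its NASH-T to Con ratio was 7.75 (4.33 to 15.1), and 5.72 (3.02 to 11.8) without the endothelial-gene cells. It was 1.42 (1.12 to 1.83) in stellate-rule cells. FTH1 had UMIs in 21 of 40 NASH-T, 8 of 26 NASH and 11 of 40 Con cells, and in thinned cells in 30%, 19.2% and 15%, against 10.5%, 10.5% and 10.3% of T cells.

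MPZL1, an adhesion receptor, had 25 UMIs in NASH-T, 5 in NASH and 5 in Con. Its NASH-T to Con ratio was 5.09 (1.91 to 17.0), and 5.96 (2.22 to 20.1) without the endothelial-gene cells.

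Fibroblast-side genes were higher in NASH-T than in Con in 4 of 11 cases, with 0 lower (median 0.29). OGN had a ratio of 4.24 (1.70 to 12.6) and MGP one of 2.20 (1.07 to 4.79). CLEC3B, tetranectin, had a ratio of 4.17 (2.05 to 9.34), which was 1.58 (0.596 to 4.32) without the endothelial-gene cells. COL14A1, at 1689 CPM in NASH-T, 664 in NASH and 929 in Con, had a ratio of 1.82 (1.36 to 2.44), which was 0.903 (0.606 to 1.34) without those cells. Of 9 chemokine and complement genes 3 were higher and 0 lower (median 0.61): CXCL12 at 1.88 (1.16 to 3.13), CFD, complement factor D, at 1.85 (1.07 to 3.27) and PTGDS at 1.86 (1.02 to 3.52). Without the endothelial-gene cells these 3 ratios were 2.40, 2.18 and 2.23.

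Of the hepatocyte list 1 of 8 was higher (APOA2) and 3 lower in NASH-T. PCK1 had 6 UMIs in NASH-T, 14 in NASH and 50 in Con, with 64% of the Con UMIs in 1 cell. FGB had 18, 13 and 51. Their part in the other differences was not tested.

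**Figure D5:**
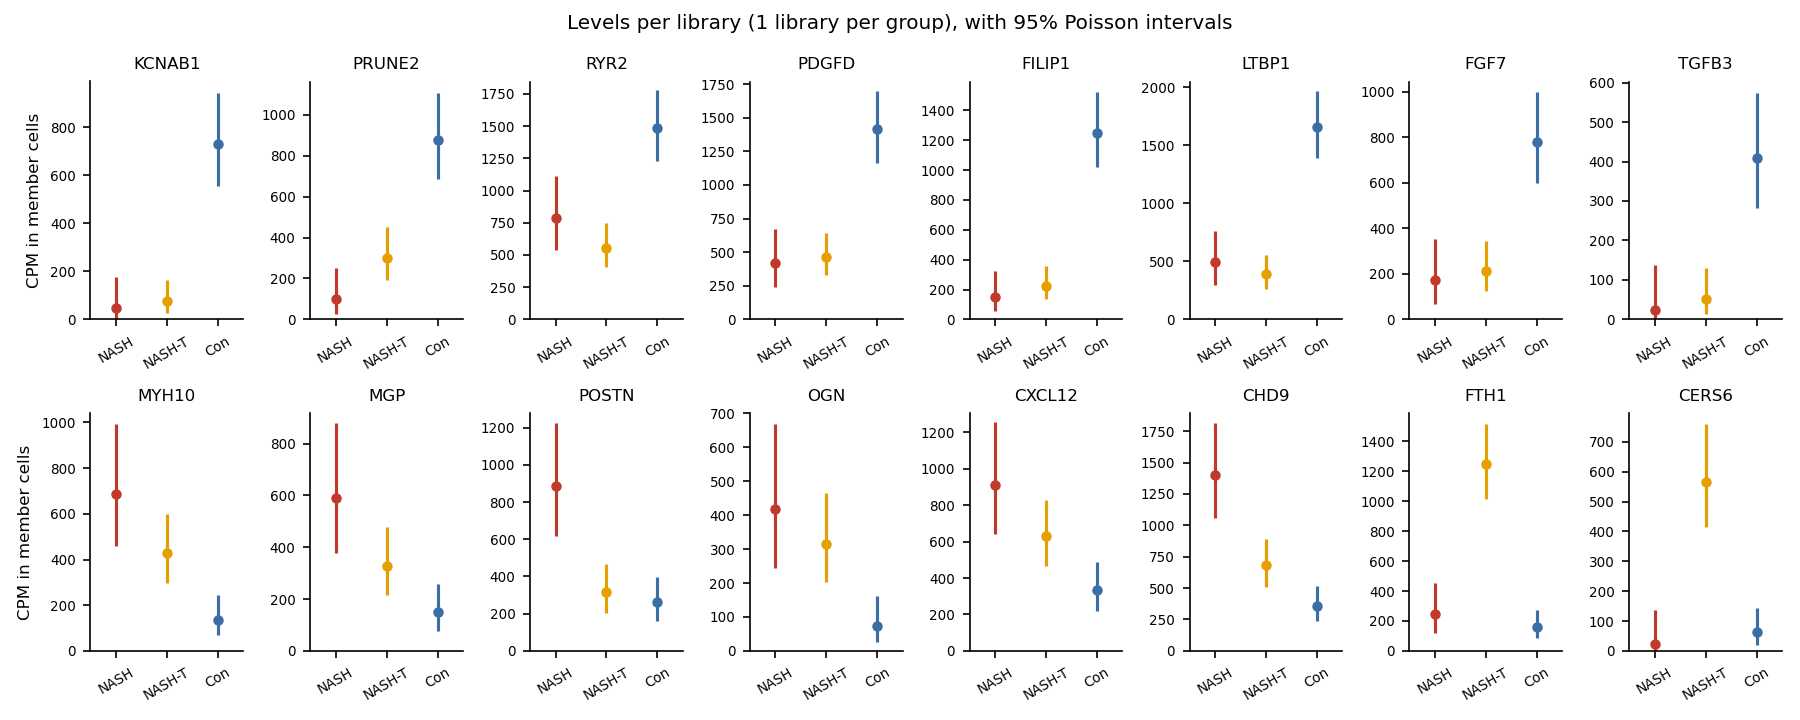
Panels give the CPM of 16 genes in the selected cells of NASH, NASH-T and Con (1 library each), with 95% Poisson intervals. KCNAB1, PRUNE2, RYR2, PDGFD, FILIP1, LTBP1, FGF7 and TGFB3 are highest in Con, MYH10, MGP, POSTN, OGN, CXCL12 and CHD9 are highest in NASH, and FTH1 and CERS6 are highest in NASH-T, at 1248 and 567 CPM. They stand at 870 and 148 CPM in NASH-T when the endothelial-gene cells are left out.

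The comparison of NASH-T with NASH sets 2 groups on the HRDS diet side by side. Here 104 of 1354 genes were higher in NASH-T (7.68%) and 107 lower (7.9%), and without the endothelial-gene cells 56 were higher and 60 lower, of which 39 and 48 were called with them as well. Contractile genes had 0 of 11 called either way (median -0.13). ANGPT1, POSTN, ABCC9 and ALDH1A1 were lower in NASH-T, and C7, COL1A2, SPON1 and LMCD1 were higher.

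ANGPT1 (ENSCHIG00000015819), the vessel-stabilising ligand of the TIE2 receptor that mural cells secrete, was at 529 CPM in NASH-T (381 to 715) and 1746 in NASH, with 1400 in Con. Its NASH-T to NASH ratio was 0.303 (0.202 to 0.450). It was 0.356 (0.224 to 0.557) in muscle-type cells, 0.310 (0.122 to 0.766) in fibroblast-type cells and 0.395 (0.263 to 0.586) without the endothelial-gene cells, and 0.747 (0.659 to 0.847) in stellate-rule cells. NASH-T was the lowest of the 3 libraries.

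ALDH1A1, a retinaldehyde dehydrogenase, was at 365 CPM in NASH-T and 1156 in NASH, with 458 in Con, a NASH-T to NASH ratio of 0.316 (0.192 to 0.513). POSTN had a ratio of 0.356 (0.205 to 0.609) and ABCC9 one of 0.356 (0.220 to 0.572), and they were the 2 lower pericyte genes of 5. NID1, HMCN1, POSTN and NPNT, a basement membrane protein, made 4 lower of 17 proteoglycans and glycoproteins (median -0.52). NID1 was at 0.477 (0.189 to 1.15) and HMCN1 at 0.482 (0.217 to 1.04) without the endothelial-gene cells, so both intervals held 1. For NPNT no value without those cells is given. P3H2, a collagen prolyl hydroxylase, had a ratio of 0.342 (0.211 to 0.545), and 0.581 (0.337 to 1.01) without the top cells. DAB2, CLIP1, TBX20, SGMS1, MBNL2, SMARCA2 and INTS6 were the other ranked genes, with ratios between 0.315 and 0.348.

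Vascular tone genes went both ways in NASH-T against NASH, with 2 higher and 3 lower of 16. CACNB2 was at 945 CPM in NASH-T and 246 in NASH, a ratio of 3.84 (1.98 to 8.34), with 49.3% of the NASH-T UMIs in 1 cell, and 1.53 (0.703 to 3.61) without the endothelial-gene cells. PDE4D, a cyclic AMP phosphodiesterase, had 29 UMIs in NASH-T and 4 in NASH, with a ratio of 2.84 (0.925 to 11.6) without those cells. TRPC6 had a ratio of 0.465 (0.309 to 0.698), but 1.02 (0.555 to 1.92) in muscle-type cells alone and 0.219 (0.118 to 0.394) in fibroblast-type cells with the endothelial-gene cells. GUCY1A1, a subunit of the nitric oxide receptor, had a ratio of 0.622 (0.406 to 0.960), which was 0.779 (0.505 to 1.20) without the endothelial-gene cells. ABCC9 was the third lower member. MRTFB, a coactivator of serum response factor, was higher at 2.90 (1.21 to 8.46), and was 1.78 (0.661 to 5.55) without the endothelial-gene cells.

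C7 was at 2886 CPM in NASH-T and 1451 in NASH, a ratio of 1.99 (1.49 to 2.70). The ratio was 2.56 (1.91 to 3.46) without the endothelial-gene cells and 0.827 in stellate-rule cells. SPON1 had 28 UMIs in NASH-T and 3 in NASH, a ratio of 4.78 (1.48 to 24.6). COL1A2 had 62 UMIs in NASH-T and 11 in NASH, a ratio of 2.89 (1.51 to 6.08) that was 0.686 (0.289 to 1.67) without the top cell of each library. COL14A1 had a ratio of 2.54 (1.67 to 4.00), and 1.14 (0.692 to 1.90) without the endothelial-gene cells. CLEC3B had a ratio of 5.25 (1.90 to 20.2) with them and 1.84 (0.544 to 7.90) without. C7, COL14A1 and CLEC3B were the 3 portal fibroblast genes higher in NASH-T of 10, with 0 lower.

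LMCD1, a LIM protein of muscle, was at 693 CPM in NASH-T and 123 in NASH, with 359 in Con, a NASH-T to NASH ratio of 5.64 (2.27 to 18.0), and 5.87 (2.33 to 19.0) without the endothelial-gene cells. JAG1, a NOTCH ligand, had 20 UMIs in NASH-T and 3 in NASH, a ratio of 3.42 (1.01 to 18.0), and ID3, a target of BMP signals, had 19 and 1, a ratio of 9.74 (1.55 to 405) that was 6.01 (0.832 to 263) without the endothelial-gene cells. CERS6 had 45 UMIs in NASH-T and 1 in NASH, a ratio of 23.1 (3.93 to 931), and also 6.01 (0.832 to 263) without those cells. EMCN had 36 UMIs in NASH-T and 0 in NASH, and its UMIs were all in endothelial-gene cells. With the 0 set to the same floor it was 6.15-fold higher, and the interval of the ratio began at 4.75. PDE7B, CSGALNACT1, PTPRB, CTTNBP2, TSHZ2 and EXOC6 were the other ranked genes. Without the endothelial-gene cells PDE7B was at 1.56 (0.355 to 9.33), TSHZ2 at 3.67 (0.801 to 34.1) and EXOC6 at 1.17 (0.297 to 5.44), and CSGALNACT1, PTPRB and CTTNBP2 were under 10 UMIs over NASH-T and NASH.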

How the data were processed

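Liver of 15 goats, pooled by group into 3 libraries, was measured by 3′ single-cell RNA sequencing. The submitters' processing notes name Cell Ranger 7.0.0, and the values the authors deposited are whole UMI counts for each gene in each barcode. A genome build is not given in the sources used here. In all, the matrices held 27271 features, of which 15450 had a unique symbol. Barcodes were used as deposited, with no further filter. The depth was 31195014 UMIs in NASH, 29572158 in NASH-T and 25506238 in Con.

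Counts were summed over the selected cells of a library and divided by their total. Levels carry exact Poisson intervals, shares exact binomial (Clopper-Pearson) intervals, and ratios exact conditional binomial intervals (scipy 1.17.1). With 1 library per group there was no test, and no p-value or SE was formed from cells. The code for the calls was run on simulated counts, in which genes changed by a known fold were called in the right direction. That run checks the code only. Whether a call holds when the UMIs of a gene gather in 1 cell was not tested by it. Stellate-rule cells and T cells (at least 1 THEMIS UMI, no CPS1 or ABCB11 UMI) were set beside the selected cells.

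Genes named by rank were the 10 with the largest ratio per comparison and direction, with at least 30 UMIs, a UMI in at least 10% and at least 5 cells of the higher library, a level there no lower than in other barcodes and a ratio of at least 2. For the arms they were 12 genes per arm with at least 60 UMIs. Some genes that the rule names are not reported here. Up to 4 called genes per list and direction were added from 24 gene lists with 563 names, of which 504 were found. The ranking left out genes of ribosomal proteins, mitochondrial DNA, haemoglobin, antibodies and the T cell receptor. Marker genes of the label check, the leading genes and NPNT were named outside the rule. The selected cells, the lists and the kinds were chosen with earlier results of these data known.

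Doublets were called with Scrublet in scanpy 1.11.5 (expected rate 0.06), which marked 342 barcodes in NASH, 436 in NASH-T and 291 in Con, and were left out only as an alternative. Other alternatives changed the rule's threshold, depth, scaling, the minimum of UMIs and the cells included.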

Additional observations from a re-analysis of the deposited data

How the results depend on the processing

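The ratios of the share of selected cells kept their direction under each of the 5 alternatives. With the rule at 2 or 5 UMIs, thinning, doublets left out or the low-hepatocyte denominator, they ran from 0.543 to 0.694 for NASH to Con, 0.781 to 0.852 for NASH-T to Con and 1.13 to 1.57 for NASH-T to NASH. The cause of the changes in called genes below was not tested, except that fewer UMIs, genes or cells enter where depth, minimum or cells are cut. Genes higher and lower in NASH than in Con numbered 27 and 38 with cells thinned to 1000 UMIs, 32 and 54 at a minimum of 50 UMIs, and 45 and 50 within fibroblast-type cells. At a minimum of 10 UMIs 128 were higher, and in cells with no hepatocyte UMI 65 were lower. For NASH-T against Con the counts were 32 and 59 thinned, 64 and 100 at 50 UMIs, 69 and 106 within muscle-type cells, 99 and 92 within fibroblast-type cells, and 93 higher without the endothelial-gene and RELN-bearing cells. For NASH-T against NASH they were 26 and 30 thinned, 36 and 48 at 50 UMIs, 36 and 35 within muscle-type cells, 56 and 60 without the endothelial-gene cells, and 47 and 53 also without RELN-bearing cells. For the arms 80 were higher and 63 lower at 50 UMIs. Scaling without mitochondrial, ribosomal and hepatocyte genes, or centring on the median gene, moved no count by over 1.5 times.

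Leaving out the cell with the most UMIs of a gene in each library brought 1 into the interval for 15 of 49 named genes called in NASH against Con, 13 of 50 in NASH-T against Con and 12 of 40 in NASH-T against NASH. Leaving out the endothelial-gene cells did so for 0 of 49, 5 of 45 and 15 of 35 that kept a value. Some named ratios turned. For NASH to Con, COL12A1 was at 1.495 and CCSER1 at 0.841 without the endothelial-gene and RELN-bearing cells, FANCC at 0.857 with thinned cells, RYR2 at 2.13 and GTDC1 at 0.651 within fibroblast-type cells, and PLOD2 at 1.01 and DPT at 0.255 within muscle-type cells. For NASH-T to Con, NR4A3 was at 1.23 and COL14A1 at 0.726 within muscle-type cells, COL14A1 at 0.903 without the endothelial-gene cells and 0.945 also without RELN-bearing cells, and CCSER1 at 0.816 without both. For NASH-T to NASH, TRPC6 was at 1.02 and COL14A1 at 0.792 within muscle-type cells, and EXOC6 at 0.939 with the rule at 5 UMIs. The alternatives that left out the deepest cell, hepatocyte-bearing cells, endothelial-gene cells or RELN-bearing cells were chosen after seeing the data. No paired analysis was possible because each group has 1 pooled library and no replicate number. Depth limits genes under about 20 UMIs over the selected cells, and 26 to 40 cells per library let 1 cell decide many values.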
